A study of Mus musculus with 12 samples.

Results

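Integrins are cell-surface receptors that pair an alpha chain with a beta chain and hold cells to the extracellular matrix. Laminins, built from an alpha, a beta and a gamma chain, and the network-forming collagen IV are the main proteins of basement membranes, the thin matrix sheets around vessels and below the meninges. In the dentate gyrus, the part of the hippocampus where new neurons arise in adults, neural stem cells lie near vessels, and integrins of these families are studied as their contacts with the matrix. The integrin, laminin and collagen genes were taken by name among protein-coding genes: integrin alpha (Itga) and beta (Itgb), laminin (Lama, Lamb, Lamc) and collagen (Col) genes that reached 10 or more counts in 4 or more of the 12 libraries. Of 78 genes with such names, 37 reached this threshold, among 16119 of all 50600 gene rows that did. The 37 were 7 of 15 integrin alpha, 3 of 8 integrin beta, 7 of 11 laminin and 20 of 44 collagen genes.

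The libraries came from dentate gyri of Nestin-GFP mice aged 6 to 9 weeks, in which nestin regulatory sequences drive green fluorescent protein (GFP) in stem cells and progenitors. Live cells negative for CD31, CD45, O1 and O4 were sorted as stem cells (positive for GLAST and GFP), progenitors (GFP only) or astrocytes (GLAST only), and all carried the transgene. Each of 12 libraries held RNA of 50 sorted cells, with 4 libraries for each of 3 cell types. Total counts ranged from 5031166 to 12535028, and levels are given as counts per 1000000 (CPM) on TMM-scaled library sizes. The study calls the 4 libraries of a type biological replicates and describes a single mouse brain as enough for each. The labels do not say which animal gave which library or whether the cell types share animals, and the p-values measure the spread between these libraries.

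The labels were first set beside marker genes. Dcx, a marker of immature neurons, was at 171.9 to 299.9 CPM in progenitors and at most 8.82 CPM in the other libraries. Slc1a3, which encodes GLAST, was between 6768 and 9249 CPM in stem cells and between 3797 and 6158 CPM in astrocytes. Progenitors, sorted as GLAST-negative, still had 2235 to 3403 CPM of Slc1a3, and Nes, which encodes nestin, was at most 0.521 CPM in stem cells. The GFP-positive progenitor libraries also held genes of oligodendrocyte precursors: Pdgfra was at 395.7 to 866.4 CPM and Sox10 at 113.5 to 230.0 CPM. In bulk libraries such as these, fewer cells of a kind and less RNA per cell cannot be told apart.

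Laminin beta1 and a few collagens were detected almost only in progenitors, and Itgb5 was higher in astrocytes than in progenitors. Lamb1, Col26a1, Col12a1 and Col18a1 were higher in progenitors than in astrocytes and than in stem cells, and 8 of the 37 genes passed the test in at least 1 of 3 comparisons. These 4 genes reached the count threshold in the 4 progenitor libraries alone, so they entered the set through the type in which they are high. Each comparison used the same threshold on its own 8 libraries. Col4a1 against astrocytes (1 to 7 counts there) and Lama4 against stem cells (0 to 6 counts there) also passed it through progenitors alone. All members that edgeR called higher in progenitors thus entered their tests through that type. Nothing is read from the excess of their counts over the background shares. In astrocytes against progenitors, 6 of 34 tested members passed (17.65%), where 8.63% of all 14806 tested genes did. In edgeR, only Itgb5 was higher in astrocytes (background 2.45%), and 5 members were higher in progenitors (background 6.18%). In progenitors against stem cells, 6 of 33 tested members passed, where 8.6% of all 15427 tested genes did. Of these, 5 were higher in progenitors (background 4.95%) and 1, Col4a5, was higher in stem cells (background 3.66%). In astrocytes against stem cells, 0 of 26 tested members passed in edgeR, where 0.0468% of 12831 genes did, and DESeq2 called 1, Col4a1. At an unadjusted p under 0.05 there were 4 members in this comparison, beside 9.555% of all genes tested. All p-values are from the quasi-likelihood test of edgeR, adjusted over all genes of a comparison by the Benjamini-Hochberg method.

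Both counts depended on single libraries and on the tool. DESeq2 called 14 members in the first comparison and 11 in the second, beside 2431 and 2394 genes in all. Of these members, 6 were higher in astrocytes and 8 in progenitors in the first. In the second, 7 were higher in progenitors and 4 in stem cells (Itgb5, Itgb8, Col16a1 and Col4a5). The 7 included Lamc1 and Col9a2 (DESeq2 adjusted p = 0.001 for Col9a2), which edgeR did not call. Without a count filter, edgeR called 1 member (Lamb1) and 529 genes in the first. With all 12 libraries in 1 fit, it called 3 members and 381 genes in the second. The counts over all genes thus moved in the same direction as those of the members. The count of 6 members for astrocytes against progenitors fell to 3 without progenitor library a, to 2 without c and to 2 without d. The count of 6 for progenitors against stem cells fell to 3 without progenitor library d. The median log2 fold change of the members was -0.17 (astrocytes minus progenitors), -0.2 (progenitors minus stem cells) and 0.61 (astrocytes minus stem cells), beside 0.03, 0.04 and 0.14 over all genes tested. The medians were the same with genes at the count floor set to their bounds.

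**Figure D1:**
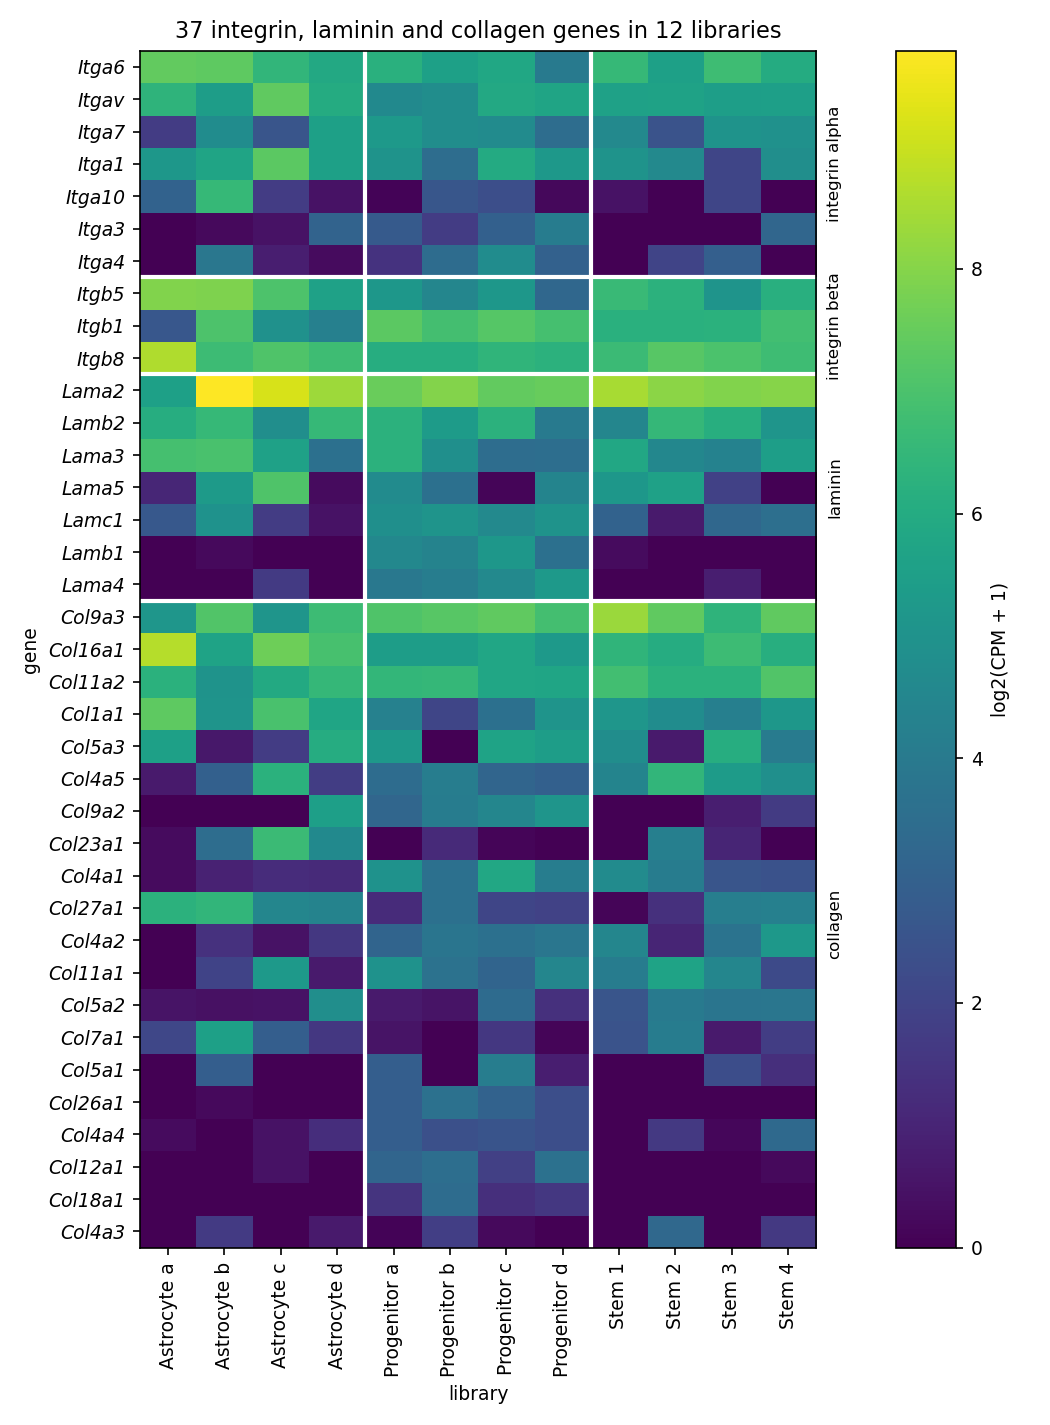
Levels of the 37 members (rows, by family and then by mean level per length) in the 12 libraries (columns), as log2(CPM + 1). Lamb1, Lama4, Col26a1, Col12a1 and Col18a1 are brighter in progenitor libraries than elsewhere, where they are at or near 0, while Lama2, Itgb8 and Col9a3 are bright in most libraries.

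To show the DNA ahead of the genes that passed the test, the stretches upstream of 4 of them were taken from RefSeq promoter sequences on GRCm38.p6. These are Lamb1 and Col18a1, which were higher in progenitors, and Itgb5 and Col4a5, which were lower in progenitors than in astrocytes and in stem cells, respectively. Each stretch starts 250 bases before the RefSeq start and ends there or where GENCODE M21 annotates an exon. Capitals mark matches on either strand to the GC box GGGCGG, the CCAAT box CCAAT and the TATA box TATAAA, none of which overlapped.
Lamb1, chr12:31265043-31265233, plus strand: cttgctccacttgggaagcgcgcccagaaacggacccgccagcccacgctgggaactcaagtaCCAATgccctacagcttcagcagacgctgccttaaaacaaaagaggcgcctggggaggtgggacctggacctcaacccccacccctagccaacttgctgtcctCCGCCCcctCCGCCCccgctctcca
Col18a1, chr10:77166549-77166780, minus strand: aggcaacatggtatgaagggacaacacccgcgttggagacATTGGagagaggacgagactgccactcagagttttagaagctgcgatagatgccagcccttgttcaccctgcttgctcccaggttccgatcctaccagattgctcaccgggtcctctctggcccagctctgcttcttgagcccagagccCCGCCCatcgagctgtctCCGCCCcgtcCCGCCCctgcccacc
Itgb5, chr16:33829415-33829664, plus strand: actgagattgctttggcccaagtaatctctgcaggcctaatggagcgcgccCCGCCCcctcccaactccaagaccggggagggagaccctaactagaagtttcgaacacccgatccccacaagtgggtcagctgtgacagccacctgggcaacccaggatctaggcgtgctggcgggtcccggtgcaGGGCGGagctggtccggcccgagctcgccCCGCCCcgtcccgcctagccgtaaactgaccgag
Col4a5, chrX:141475169-141475384, plus strand: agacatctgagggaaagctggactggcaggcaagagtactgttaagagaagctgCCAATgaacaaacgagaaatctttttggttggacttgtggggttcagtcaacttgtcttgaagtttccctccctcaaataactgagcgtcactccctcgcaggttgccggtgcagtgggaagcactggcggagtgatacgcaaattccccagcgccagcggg

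GC boxes stood 84 and 75 bases before the RefSeq start of Lamb1, 61, 43 and 33 bases before that of Col18a1, and 199, 63 and 34 bases before that of Itgb5. A CCAAT box stood 187 bases before the start of Lamb1, 210 before that of Col18a1 and 196 before that of Col4a5, and no TATA box lay in these windows. Of all 32851 windows of 250 bases in the RefSeq table, 32.7% held a GC box, 33.8% a CCAAT box and 12.4% a TATA box. Among 28 windows of 26 members, 19 held a GC box, 11 a CCAAT box and 1 a TATA box. Col4a5 also had a GC box 30 bases before its start, beyond the printed stretch. These matches describe letters only. Col18a1 has a second RefSeq start whose window lies mostly in its own exons, and it is not shown. The window of Col4a1 (chr8:11312827-11313076) lies wholly in exons of Col4a2, since these neighbours are read in opposite directions and their first exons overlap, and it is not shown either.

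Itgb1 encodes beta1, the shared partner of alpha chains for laminin and collagen, and beta5 and beta8, which pair with alphav, bind vitronectin and latent TGF-beta, respectively. Per kilobase of exon, Itgb1 made up 67.6% to 75.6% of the summed level of the 3 beta genes in progenitor libraries. Its share was 32.4% to 48.2% in stem cells and 1.25% to 30.0% in astrocytes, so that the 3 ranges did not overlap. Itgb5 held 49.0% to 65.5% of this sum in astrocytes, 23.3% to 51.0% in stem cells and 6.36% to 18.3% in progenitors. These shares are a description and have no test.

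Itgb5 (chr16:33829665-33949338) had 242.0, 236.4, 132.1 and 47.6 CPM in astrocyte libraries a to d. Its levels were 35.5, 21.3, 34.9 and 8.69 CPM in progenitors a to d and 99.0, 77.9, 32.5 and 71.3 CPM in stem cells 1 to 4. All 4 astrocyte levels exceeded those of the progenitors, although astrocyte library d was close to them, and stem cells overlapped with both. The astrocyte minus progenitor log2 fold change was 2.7 ± 0.68 (SE, edgeR adjusted p = 0.034), and the call held in 2 of 8 fits that each left out 1 library. It was lost without astrocyte library a or b or any of the progenitor libraries, where the log2 fold change was between 2.43 and 2.94. For progenitors minus stem cells, it was -1.52 ± 0.5 with an adjusted p of 0.1 in edgeR, while DESeq2 called Itgb5 (adjusted p = 0.029).

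Itgb1 had 159.4, 114.9, 147.9 and 118.7 CPM in progenitors and 72.3, 73.0, 75.4 and 113.1 CPM in stem cells. In astrocytes it spread from 5.33 through 17.97 and 29.8 to 132.6 CPM, in libraries a, d, c and b. Progenitors were above stem cells in every library but not above astrocyte library b. Neither difference passed edgeR's test, with log2 fold changes of 0.66 ± 0.24 for progenitors minus stem cells (adjusted p = 0.13) and -1.53 ± 0.85 for astrocytes minus progenitors (adjusted p = 0.39). Without stem cell library 4, which had the highest value of its type, Itgb1 passed in progenitors against stem cells, and without astrocyte library b it passed in astrocytes against progenitors. Itgb8 was at 67.5 to 83.2 CPM in progenitors, 100.1 to 149.1 CPM in stem cells and 103.4 to 388.3 CPM in astrocytes. Progenitors were the lowest in each pairing, yet the adjusted p in edgeR was 0.057 against stem cells and 0.18 against astrocytes. DESeq2 called Itgb8 lower in progenitors than in stem cells (adjusted p = 0.012).

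**Figure D2:**
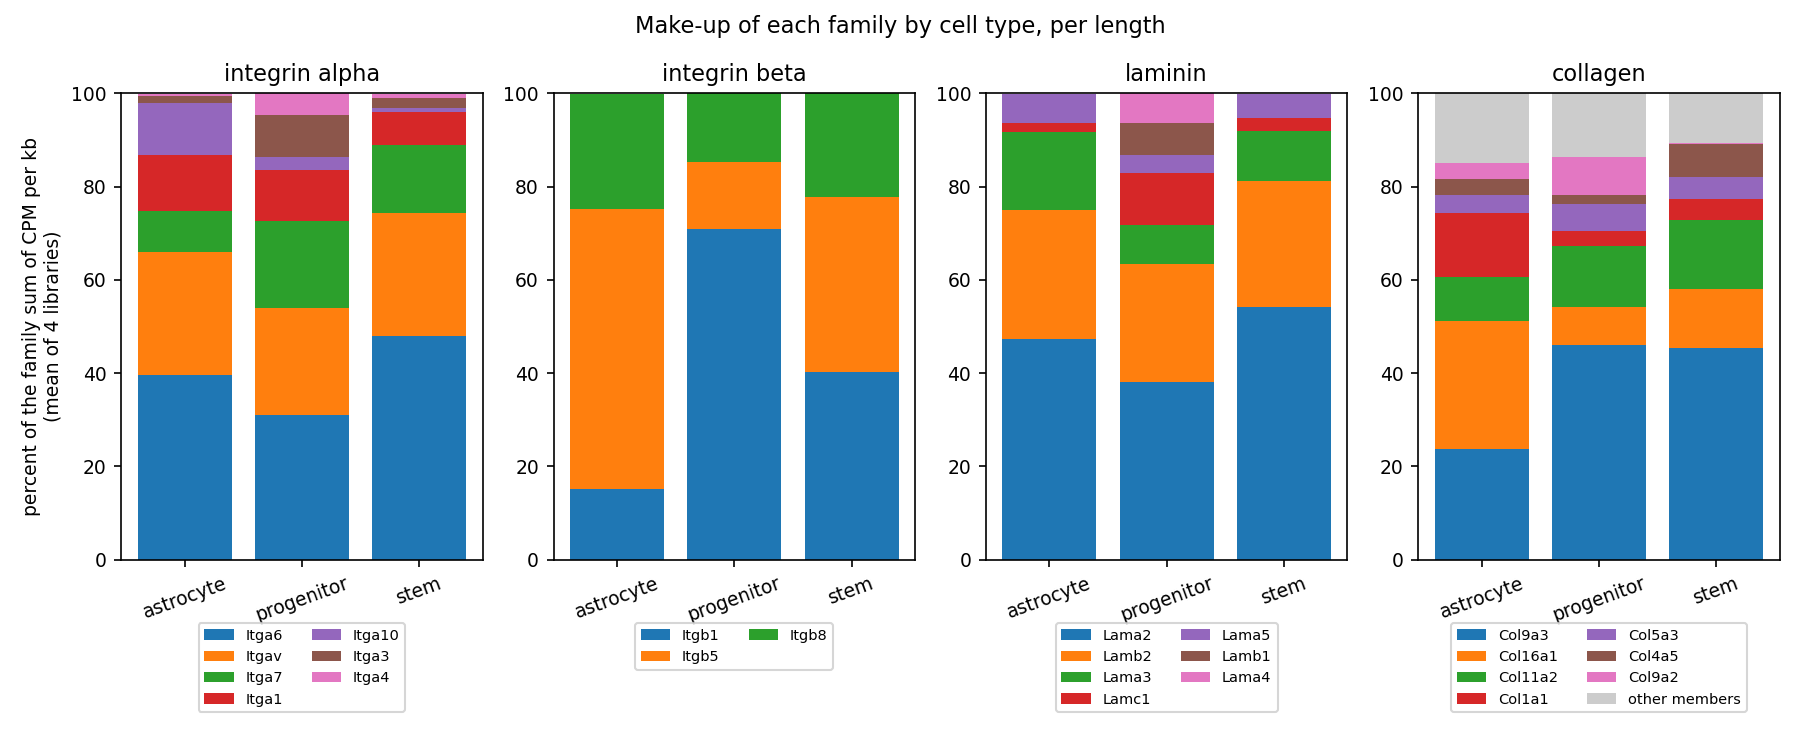
Share of each gene in the summed CPM per kilobase of its family (y axis, percent, mean of 4 libraries) for astrocytes, progenitors and stem cells, with genes as coloured segments. Itgb1 holds 71.0% of the beta sum in progenitors, 40.3% in stem cells and 15.1% in astrocytes.

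Integrin alpha genes gave no call in any comparison, by edgeR or by DESeq2. Per length, Itga6, a laminin receptor chain, led this family with 9.06 CPM per kb over all libraries, followed by Itgav (5.46), the partner of beta5 and beta8, and by Itga7 (2.77) and Itga1 (2.32), chains for laminin and collagen. Itga6 was at 59.2 to 172.7 CPM in astrocytes, 15.2 to 72.2 CPM in progenitors and 46.1 to 105.1 CPM in stem cells, and these ranges overlapped. Its astrocyte minus progenitor log2 fold change was 1.34 ± 0.61 (edgeR adjusted p = 0.28). Itgav was steady in stem cells, at 43.8 to 49.4 CPM, beside 23.7 to 59.1 CPM in progenitors and 42.9 to 167.9 CPM in astrocytes. Itga7 spread from 2.34 to 46.2 CPM in astrocytes, 10.4 to 38.1 CPM in progenitors and 4.69 to 31.3 CPM in stem cells. Itga1 spread from 35.1 to 158.8, from 10.3 to 62.5 and from 3.13 to 31.7 CPM in the same order, and the astrocyte minus stem cell log2 fold change was 1.76 ± 0.89 (edgeR adjusted p = 0.59). The 3 other members were low per length (0.417 to 1.87 CPM per kb over all libraries). Of these, Itga10 shares 33.5% of its exon bases with another gene on the same strand, so that its counts are uncertain.

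**Figure D3:**
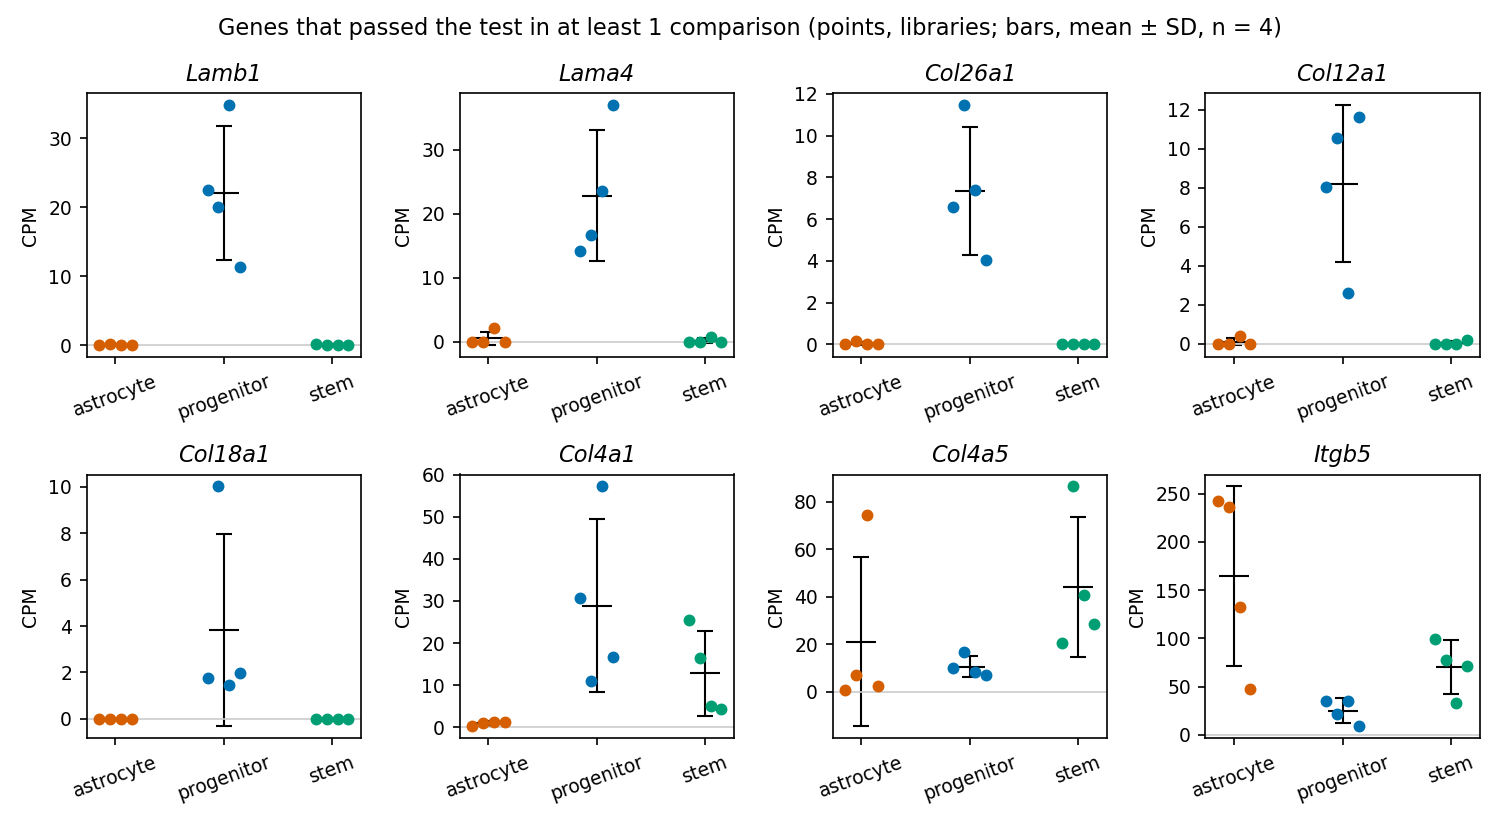
CPM of the 8 genes that passed the test in at least 1 comparison (points, libraries; bars, mean ± SD, n = 4) in astrocytes, progenitors and stem cells, on linear axes with a scale of their own. Lamb1, Col26a1, Col12a1 and Col18a1 sit at or near 0 outside progenitors, Col4a1 is near 0 only in astrocytes, and Itgb5 is lowest in progenitors.

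In the laminin family, Lamb1 (chr12:31265234-31329644), which encodes the beta1 chain, had 22.4, 19.96, 34.7 and 11.3 CPM in progenitor libraries a to d, from 327, 239, 376 and 131 counts. Among the 8 other libraries, 1 astrocyte library had 1 count, stem cell library 1 had 2 counts and the rest had 0. Progenitors were therefore at least 36.95-fold higher than astrocytes (edgeR adjusted p = 0.015) and at least 54.2-fold higher than stem cells (adjusted p = 0.003). These bounds set the lower group to 3 counts in each library. Both calls held in all 8 fits that each left out 1 library.

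Lama4 (chr10:38965515-39110188), the alpha4 chain of vessel basement membranes, had 14.2, 16.7, 23.6 and 36.9 CPM in progenitors a to d. It had 2.17 CPM in astrocyte library c, 0.7505 CPM in stem cell library 3 and 0 in the 6 other libraries of these types. The progenitor minus stem cell log2 fold change was 6.76 ± 1.38 (edgeR adjusted p = 0.014), and this call was lost without progenitor library d, where it was 6.45, and with all 12 libraries in 1 fit (adjusted p = 0.13). The astrocyte minus progenitor value of -5.32 ± 1.77 did not pass in edgeR (adjusted p = 0.11), but did without astrocyte library c. DESeq2 called this difference with all libraries of both types (adjusted p = 0.002). Lamc1, the gamma1 chain that completes laminins with beta1, was named after its values were seen. It had 28.5, 32.8, 23.3 and 31.5 CPM in progenitors, above the 0.652 to 10.96 CPM of stem cells, and 31.1 CPM in astrocyte library b against 0.409 to 5.54 CPM in the others. Its edgeR adjusted p was 0.14 against stem cells and 0.56 against astrocytes. DESeq2 called Lamc1 higher in progenitors than in stem cells (adjusted p = 0.028).

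Lama2, the alpha2 chain, was the highest laminin per length (19.1 CPM per kb over all libraries) and was present in all 3 cell types. Its levels were 45.8, 880.4, 583.1 and 321.7 CPM in astrocytes a to d, 170.6 to 251.6 CPM in progenitors and 242.5 to 362.1 CPM in stem cells. Astrocyte library a thus lay below every other library and astrocyte library b above. The log2 fold changes were 1.22 ± 0.67 for astrocytes minus progenitors and -0.55 ± 0.2 for progenitors minus stem cells, with edgeR adjusted p-values of 0.38 and 0.13. Without astrocyte library a, Lama2 passed in astrocytes against progenitors. Lamb2, the beta2 chain, had 70.2 ± 31.0 CPM in astrocytes, 52.7 ± 30.4 CPM in progenitors and 53.5 ± 31.7 CPM in stem cells (SD, n = 4), and none of its comparisons passed. Lama3 ranged from 10.2 to 124.6 CPM over the 12 libraries and Lama5 from 0 to 135.7 CPM, with no call for either chain in any comparison. Beta1 was thus close to 0 in astrocytes and stem cells while beta2 was in every library, at 15.5 CPM or more.

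The collagens that passed were low in level. Col26a1 (chr5:136741759-136883209) had 6.58, 11.4, 7.39 and 4.04 CPM in progenitors a to d, 1 count in 1 astrocyte library and 0 in the 7 others. It was at least 12.3-fold higher than in astrocytes (edgeR adjusted p = 0.016) and at least 18.1-fold higher than in stem cells (adjusted p = 0.0079). Without a count filter, the calls against astrocytes of Col26a1 (edgeR adjusted p = 0.094), Col12a1 (0.13), Col18a1 (0.12), Col4a1 (0.075) and Itgb5 (0.069) were lost. Col12a1 (chr9:79598991-79718831), which encodes a collagen that associates with fibrils, had 8.02, 10.5, 2.59 and 11.6 CPM in progenitors a to d and at most 2 counts in any other library. The bounds were at least 13.7-fold against astrocytes (adjusted p = 0.029) and at least 20.1-fold against stem cells (adjusted p = 0.0094). The first call held in 1 of 8 fits that left out a library, the one without astrocyte library c, and the second in all 8. All progenitor levels of both genes thus exceeded those of the other types, and the size of these differences is known only as a bound.

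Col18a1 (chr10:77052178-77166548), the source of endostatin in basement membranes, had 1.78, 10.02, 1.48 and 1.98 CPM in progenitors a to d and 0 counts in the 8 other libraries. Progenitor library b held most of its signal. The bounds were at least 6.38-fold against astrocytes (edgeR adjusted p = 0.023) and at least 9.36-fold against stem cells (adjusted p = 0.02). The call against astrocytes was lost without progenitor library c or d, and the call against stem cells without d, without a count filter (adjusted p = 0.062) and with all 12 libraries in 1 fit (adjusted p = 0.065).

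Of the collagen IV chains, Col4a1 and Col4a2 form the common network and Col4a3, Col4a4 and Col4a5 a rarer one. Col4a1 (chr8:11198423-11312826) had 30.6, 11.1, 57.2 and 16.7 CPM in progenitors a to d, 25.6, 16.4, 5.0 and 4.46 CPM in stem cells 1 to 4, and 0.213 to 1.38 CPM in astrocytes. Astrocytes were below both other types without overlap. The astrocyte minus progenitor log2 fold change of -4.92 ± 1.15 passed (edgeR adjusted p = 0.023) and was lost without progenitor library a, c or d. The astrocyte minus stem cell value of -3.76 ± 1.28 did not (adjusted p = 0.3), nor did the progenitor minus stem cell value of 1.14 ± 0.74 (adjusted p = 0.44). Col4a2, its neighbour on the chromosome, was named after its values were seen and had 7.96 to 13.3 CPM in progenitors, 1.04 to 36.2 CPM in stem cells and 0 to 2.04 CPM in astrocytes. Its astrocyte minus progenitor log2 fold change was -3.45 ± 1.27 (edgeR adjusted p = 0.15, DESeq2 adjusted p = 0.0033).

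Col4a5 (chrX:141475385-141689234) was higher in stem cells than in progenitors. It had 20.4, 86.4, 40.8 and 28.4 CPM in stem cells 1 to 4, above the 9.88, 16.9, 8.22 and 6.97 CPM of progenitors a to d. Astrocytes held 0.639, 6.94, 74.5 and 2.45 CPM, so that library c alone was as high as stem cells. The progenitor minus stem cell log2 fold change was -2.1 ± 0.56, with an edgeR adjusted p of 0.046 that was near the threshold. The call held in 1 of 8 fits that each left out a library, the one without stem cell library 1, and the values in the others ranged from -2.41 to -1.56. It was also lost without a count filter (edgeR adjusted p = 0.069) and with all 12 libraries in 1 fit (adjusted p = 0.68). Col4a3 and Col4a4 stayed at 9.29 CPM or less in all 12 libraries.

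The highest collagens per length were not those that passed. Col9a3 (34.9 CPM per kb over all libraries), Col16a1 (15.8) and Col11a2 (11.4) led the family, followed by Col1a1 (7.02), and all 4 had at least 10 counts in every library. Col9a3, a chain of a fibril-associated collagen, was at 114.7 to 166.8 CPM in progenitors, 80.9 to 320.2 CPM in stem cells and 33.0 to 138.5 CPM in astrocytes. It shares 6.07% of its exon bases with Tcfl5 on the opposite strand, and the counting ignored strand. Col16a1, another fibril-associated collagen, had 415.3, 50.8, 195.0 and 121.1 CPM in astrocytes and 37.2 to 54.4 CPM in progenitors. Its astrocyte minus progenitor log2 fold change of 2.13 ± 0.61 missed the threshold (edgeR adjusted p = 0.061) but passed without astrocyte library b. Col11a2 passed in no comparison, at 64.2 ± 25.3, 71.2 ± 20.7 and 100.3 ± 31.9 CPM in astrocytes, progenitors and stem cells (SD, n = 4). Col1a1, a chain of fibrillar collagen I, was at 32.1 to 164.0 CPM in astrocytes, 3.09 to 32.5 CPM in progenitors and 17.8 to 35.5 CPM in stem cells, with an edgeR adjusted p of 0.13 for the first pair. Col27a1, named after its values were seen, had 77.5, 85.3, 21.7 and 19.8 CPM in astrocytes a to d and 1.3 to 11.1 CPM in progenitors, without overlap (3.46 ± 1.03, edgeR adjusted p = 0.072). Col9a2, a partner of Col9a3 that was also named after its values were seen, had 8.44 to 33.4 CPM in progenitors and 0 to 2.23 CPM in stem cells (4.71 ± 1.41, edgeR adjusted p = 0.072), and in astrocytes 44.5 CPM in library d and 0 in the others. The 6 other collagens had means per cell type between 0.336 and 33.9 CPM and no call in edgeR, which did not test Col5a1 in any comparison. DESeq2 called Col27a1 (adjusted p = 0.00049), Col16a1 (0.01), Col1a1 (0.016), Col23a1 and Col7a1 higher in astrocytes than in progenitors. With Itgb5 these were 6 members, beside 8 that it called higher in progenitors.

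**Figure D4:**
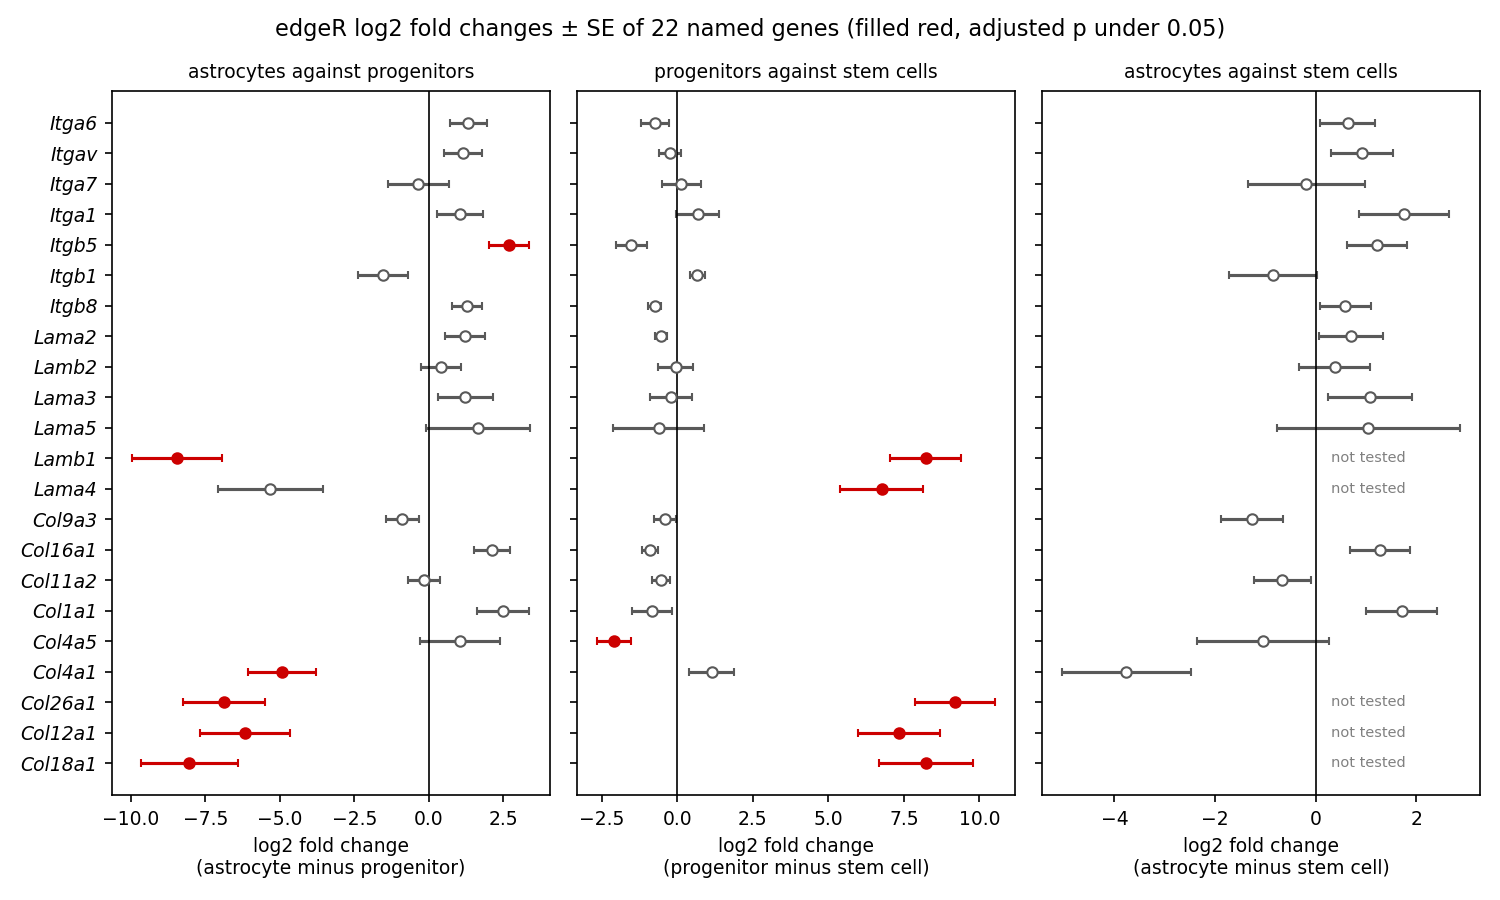
edgeR log2 fold changes ± SE (x axis) of the 22 genes chosen by rule (y axis) in the 3 comparisons, filled red where the adjusted p was under 0.05. Fitted values of genes at the count floor in 1 cell type (Lamb1, Col26a1, Col12a1, Col18a1) depend on the prior count and are not bounds; no gene is red for astrocytes against stem cells.

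At least 10 counts were found for 32 to 34 of the 37 genes in progenitor libraries, 23 to 27 in stem cells and 19 to 25 in astrocytes. Progenitor libraries were deeper than astrocyte libraries, and thinned to 5031166 counts the expected numbers were 30.4 to 33.3, 23.0 to 27.0 and 18.5 to 24.6. Part of the higher number in progenitors is set by the threshold, since Lamb1, Col12a1, Col18a1 and Col26a1 passed it through progenitors alone, and no difference between cell types is read from it. Summed per family, levels per length overlapped between the cell types, except for integrin alpha members. Their sums in astrocytes (22.13 to 47.02 CPM per kb) lay above those in progenitors (13.04 to 22.03) and stem cells (11.74 to 20.84), which was not tested. Laminin members summed to 32.6 ± 6.52 CPM per kb in progenitors, 32.1 ± 5.12 in stem cells and 51.7 ± 27.4 in astrocytes. Collagen members summed to 80.1 ± 7.82, 99.7 ± 24.6 and 96.9 ± 21.05, integrin beta members to 46.9 ± 8.74, 51.2 ± 8.14 and 74.3 ± 39.1, and integrin alpha members to 16.6 ± 4.17, 17.5 ± 4.02 and 33.6 ± 10.4 in the same order (SD, n = 4).

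Markers of other cells were set beside these results. Of 12 genes of mural cells, which wrap vessels, the summed level was 3032, 2342 and 971.5 CPM in progenitor libraries a, c and d but 59.5 CPM in b. It was 58.3 to 216.8 CPM in astrocytes and 105.3 to 150 CPM in stem cells. In progenitor library b, the mural genes Vtn, Rgs5 and Kcnj8 were at 1.25, 0.251 and 0.251 CPM. They were at 944.5, 137.8 and 51.5 CPM in library a. Most of the sum in library b came from Pdgfrb (36.75 CPM) and Myl9 (16.79 CPM), at 107.1 and 502.3 CPM in library a. Pdgfrb was also at 20.27 to 177.7 CPM in astrocytes and 38.4 to 86.7 CPM in stem cells. Among progenitors, Acta2 and Tagln were high in library a alone, at 841.8 and 365.9 CPM. Library b held Lamb1 at 19.96, Lama4 at 16.7, Col4a1 at 11.1, Col26a1 at 11.4, Col12a1 at 10.5 and Col18a1 at 10.02 CPM. These levels were above those of every astrocyte library, and for all but Col4a1 above those of every stem cell library. They come from 1 library, and the part of mural cells in the levels of libraries a, c and d was not tested.

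Endothelial genes, 10 in all, summed to 75.6, 1.0, 29.8 and 28.6 CPM in progenitors a to d, and Esam made up most of the sum in a, c and d. They summed to 3.62, 81.3, 16.6 and 4.49 CPM in astrocytes a to d and to 7.8, 183.9, 1.126 and 3.16 CPM in stem cells 1 to 4. Cldn5 was at 0 in all progenitors and astrocytes and at 36.4 CPM in stem cell library 2. Of 10 fibroblast and meningeal genes, those other than Pdgfra summed to 555.8 CPM in progenitor library d and 88.3 to 155.9 CPM in a, b and c, beside 62.8 to 220.3 CPM in stem cells and 11.8 to 122.5 CPM in astrocytes. Fbln1 made up most of this sum in progenitors a and b, in astrocytes b to d and in every stem cell library (61.9 to 146.3 CPM there). Dcn, Lum, Igf2 and Slc22a6 were at 0 in all stem cell libraries. Dcn and Lum were at 51.4 and 12.5 CPM in progenitor library d and at most 0.462 CPM elsewhere. The 12 genes of the oligodendrocyte lineage were high in all progenitor libraries, at 2001 to 3308 CPM, beside 180.1 to 557.9 CPM in stem cells, and their part in the laminin and collagen results was not tested. In astrocytes they ranged from 261.2 CPM to 2886 CPM, the latter in library a, where Mbp was the main gene and Lamb1 and Lama4 were at 0.

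**Figure D5:**
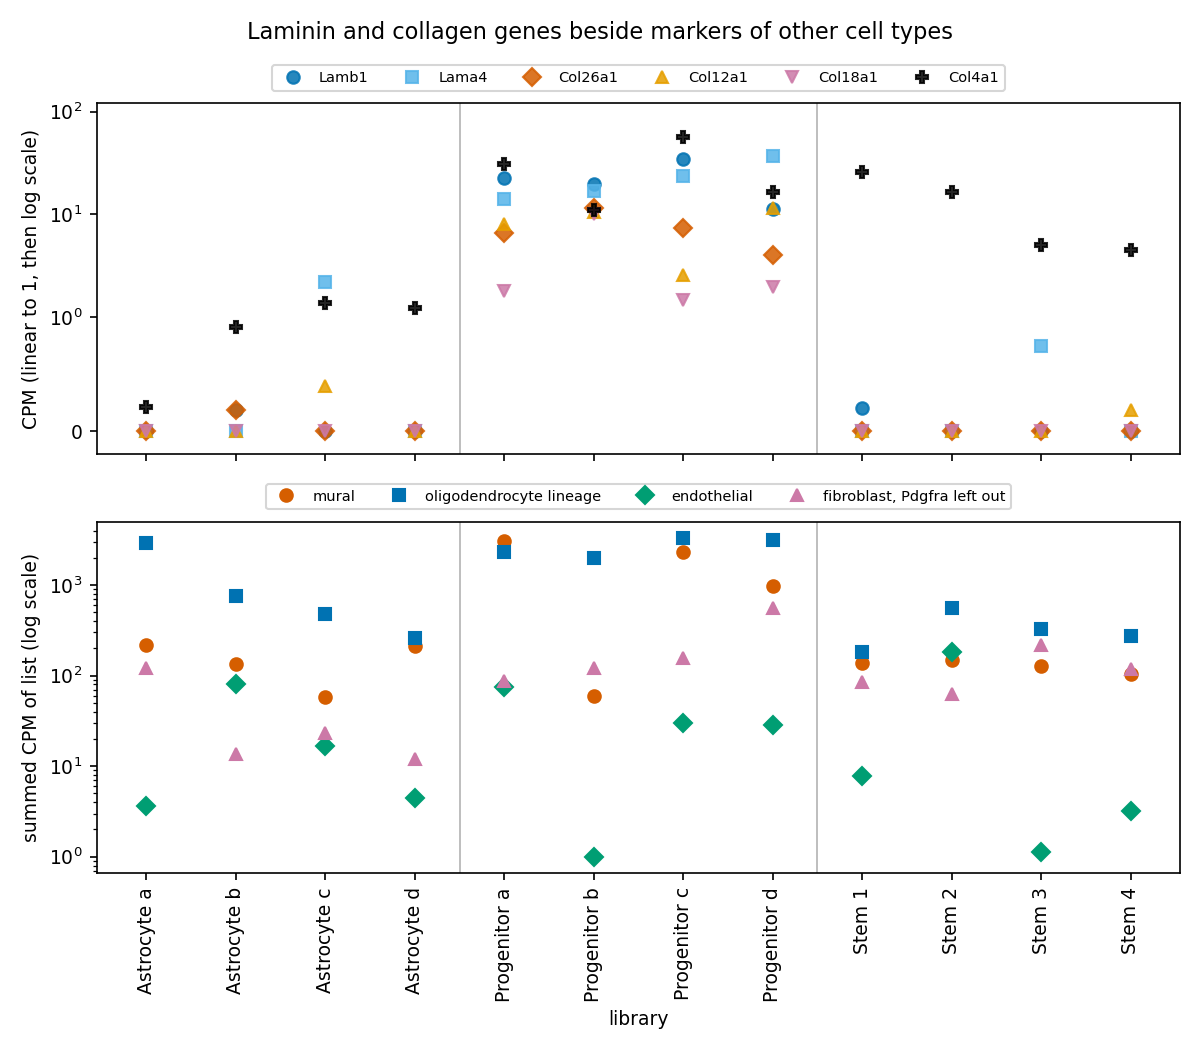
CPM of 6 laminin and collagen genes (top; linear to 1, then log scale) and summed CPM of marker lists of other cell types (bottom, log scale) in each of 12 libraries. In progenitor library b the mural list is at 59.5 CPM and the endothelial list at 1.0 CPM, while the 6 genes stay between 10.02 and 19.96 CPM.

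Microglia and macrophage genes, 11 in all, summed to 5.76 to 17.2 CPM in progenitors, 25.8 to 69.1 CPM in stem cells and 16.1 to 310.4 CPM in astrocytes, with Ptprc, which encodes CD45, at 0 throughout. Ependymal and choroid plexus genes, 8 in all, summed to 20.98 to 186.4, 47.8 to 96.8 and 1.06 to 99.9 CPM in the same order. Rarres2 made up most of this sum in every library but progenitor library a. Ccdc153, Tmem212 and Dynlrb2 were at 47.05, 32.6 and 18.3 CPM in that library and at most 0.167 CPM elsewhere. The sum of neuronal genes, 9 in all, was highest in astrocytes, at 664.1 to 5528 CPM, beside 309.4 to 442.6 CPM in progenitors and 269.4 to 510.2 CPM in stem cells. Camk2a, at 459.9 to 4052 CPM, made up most of the astrocyte sums. Snap25, Syt1, Slc17a7, Gad2 and Nrgn also had their highest mean in astrocytes. Prox1 (165.3 CPM against 43.3 CPM in astrocytes), Gad1 and Rbfox3 had theirs in progenitors. Of the lists for the sorted types, the 8 astrocyte markers summed to 17530 to 23870 CPM in astrocytes, 8296 to 10970 CPM in progenitors and 26100 to 35270 CPM in stem cells. The 7 stem cell markers summed to 490.4 to 945.4, 542.5 to 870.3 and 1137 to 1488 CPM, and the 9 progenitor markers to 24.1 to 299.9, 876.6 to 1889 and 45.0 to 105.4 CPM in this order. Lamb1, Lama4 and Col26a1 were thus high where both the progenitor markers and the oligodendrocyte lineage genes were high, and the part of either in these values was not tested.

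Genes around the members were examined by list, and the counts of calls are a description. Over all genes tested in astrocytes against progenitors, 2.45% were called higher in astrocytes and 6.18% in progenitors. In progenitors against stem cells, 4.95% were called higher in progenitors and 3.66% in stem cells. Of 24 other matrix proteins, 17 were tested in astrocytes against progenitors, where 1 was higher in astrocytes and 3 in progenitors (median log2 fold change 0.34). Of 18 tested in progenitors against stem cells, 5 were higher in progenitors and 2 in stem cells (median -0.22). Ntn1, a laminin-related guidance protein, Vcan and Acan, chondroitin sulfate proteoglycans, were higher in progenitors in both. Outside progenitors, Ntn1 was at most 0.183 CPM and Acan at 0, so both entered these tests through progenitors alone. Vcan had 181.2 to 403.5 CPM in progenitors, 17.8 to 64.5 CPM in astrocytes and 9.29 to 68.5 CPM in stem cells (edgeR adjusted p = 0.016 and 0.01). Tnr, a matrix protein of oligodendrocyte precursors and perineuronal nets, had 145.7 to 298.8 CPM in progenitors and 0.13 to 10.6 CPM in stem cells (adjusted p = 0.005). Vtn, the ligand of integrin alphav beta5 and also a mural gene, was higher in progenitors than in stem cells (adjusted p = 0.0066) although progenitor library b had 1.25 CPM. Sparcl1, secreted by astrocytes, had 2516 ± 358.2 CPM in progenitors, below the 5482 ± 1883 CPM of astrocytes and the 7335 ± 819.3 CPM of stem cells (SD, n = 4, edgeR adjusted p = 0.02 and 0.00033), and Hapln1 was higher in stem cells than in progenitors.

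Of 25 adhesion complex genes inside the cell, 22 were tested in astrocytes against progenitors, with 1 higher in each type (median 0.16), and 23 in progenitors against stem cells, with 1 higher in stem cells (median 0.22). Fermt2, which encodes the integrin activator kindlin-2, was lower in progenitors than in astrocytes (1.42 ± 0.39, edgeR adjusted p = 0.049) and than in stem cells (-1.28 ± 0.22, adjusted p = 0.0065). Its levels were 235.8 to 688.8 CPM in astrocytes, 166.0 to 277.3 CPM in progenitors and 397.1 to 570.8 CPM in stem cells. Lims2, which encodes an adaptor of integrin-linked kinase, was at 72.1 to 202.2 CPM in progenitors and at most 0.204 CPM in astrocytes (adjusted p = 0.0012). It entered this test through progenitors alone. Stem cell library 2 had 15.1 CPM of Lims2 and the other stem cell libraries at most 0.557 CPM, and this difference missed the threshold (adjusted p = 0.053).

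Of 18 other matrix receptors, 17 were tested in both comparisons that involve progenitors. None passed edgeR against astrocytes (median -0.62), and against stem cells Gpc2 was higher and Sdc4, Gpc5 and Cd81 lower in progenitors (median -0.26). Gpc2 was at 3.29 to 29.2 CPM in progenitors and at most 1.3 CPM in stem cells, so it entered this test through progenitors alone. Sdc4, a heparan sulfate co-receptor, was at 70.4 to 120.4 CPM in progenitors and 240.8 to 295.0 CPM in stem cells (edgeR adjusted p = 0.0033). Of 32 genes for the processing of collagens and laminins, 24 were tested in astrocytes against progenitors, with Mmp14 higher in astrocytes and Mmp2 higher in progenitors (median -0.19). Of 25 tested in progenitors against stem cells, Mmp2 and Mmp16 were higher in progenitors (median -0.39). Mmp2, a protease that cuts collagen IV, had 42.1 to 128.2 CPM in progenitors, at most 0.409 CPM in astrocytes and at most 5.34 CPM in stem cells (edgeR adjusted p = 0.0073 and 0.025). Against astrocytes, Mmp2 entered the test through progenitors alone. In astrocytes against stem cells, 0 genes of these 4 lists passed in edgeR.

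The threshold separated genes of similar levels. Just inside it, with 10 counts in exactly 4 libraries, were Col12a1, Col18a1, Col26a1, Col4a3, Col5a1 and Lamb1, and just outside, in 3 libraries, were Col19a1, Col1a2, Col20a1, Col9a1, Itga5, Itga9, Itgae, Lama1 and Lamc3. For Lamb1, Col12a1, Col18a1 and Col26a1 the 4 libraries were the progenitor libraries, so that they passed the threshold only through that type. A count of members that passed it is therefore not evidence of a difference between the types.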

How the data were processed

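The authors deposited raw counts per gene for 12 mouse libraries. Per the methods of the study, cDNA was preamplified with a SMARTer kit, reads were trimmed with AdapterRemoval, ribosomal, mitochondrial and PhiX reads were discarded, and the rest were aligned to GRCm38 with HISAT2 and counted on GENCODE M14 genes with featureCounts without strand. The submitters' processing notes name CASAVA 1.8.2 and HISAT2 2.0.6. Without molecular identifiers, amplified copies were counted separately, and floors of 3 counts cover counting error only. Symbols, exon lengths and overlaps came from GENCODE M21 (50376 of 50600 identifiers matched).

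Each pair of cell types was compared on its own 8 libraries with edgeR 4.0.16 in R 4.3.3 (TMM, quasi-likelihood test, at least 10 counts in at least 4 libraries, Benjamini-Hochberg threshold of 0.05). The SE is the log2 fold change divided by the root of the F statistic. Where no library of a cell type exceeded 3 counts, that type was set to this floor and its folds are lower bounds. CPM per kb divides by the exon bases of a gene. Named members were those called, the 4 highest per length of each family and those with at least 10 counts in all 12 libraries, 22 in all. Members and lists were chosen with earlier results of these data known. The lists were markers of the 3 sorted types, of endothelial, mural, fibroblast and meningeal, microglia and macrophage, oligodendrocyte lineage, ependymal and choroid plexus cells and neurons, and 4 lists of matrix and adhesion genes. Stem cell columns are numbered, while those of the other types have no number and were lettered a to d in column order. The fits were run on simulated data to check the code, with recovery required only at a low spread between libraries. Nothing about the present libraries is read from that check. Alternatives were DESeq2 1.42.0, DESeq2-type size factors, 2 other count filters, all 12 libraries in 1 fit, and each library left out (at least 10 counts in at least 3 libraries). A fit with progenitor library b alone was added after seeing the data. Python 3.11.15, numpy 2.4.6, pandas 2.3.3, scipy 1.17.1 and matplotlib drew and computed the rest.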

Additional observations from a re-analysis of the deposited data

Results flagged for a closer look

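In 70 groups of 4 libraries (the named genes above the count floor and the family sums, each within a cell type), 7 held a library far from the others. For normally distributed values the rule gives about 1 in 20, a rate that need not hold for these levels. Col18a1 was at 10.02 CPM in progenitor library b and at 1.48 to 1.98 CPM in the other progenitors. In astrocyte library c, Col4a5 was at 74.5 CPM (others 0.639 to 6.94), Itga1 at 158.8 CPM (others 35.1 to 51.1) and Lama4 at 2.17 CPM (others 0). Itgb8 was at 388.3 CPM in astrocyte library a (others 103.4 to 136.3). Itgb1 was at 113.1 CPM in stem cell library 4 (others 72.3 to 75.4), and Lama4 at 0.7505 CPM in stem cell library 3 (others 0). For Lama4, the gap comes from 11 and 6 counts against 0.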

How the results depend on the processing

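The log2 fold changes of the 12 calls on 8 members kept their direction in every fit that could test them. DESeq2-type size factors again gave 6, 6 and 0 members, and the cause of other changes was not tested unless a construction shows it. DESeq2 called 14, 11 and 1 members and 2431, 2394 and 635 genes in the first (astrocytes against progenitors), the second (progenitors against stem cells) and the third comparison (astrocytes against stem cells). Without a count filter, 1 member and 529 genes were called in the first comparison and 16 genes in the third. With 10 counts required in every library, which drops genes absent from a type, 0 members (6 of 15 at an unadjusted p under 0.05 in edgeR, beside 1308 of 5862 genes, 14 called by DESeq2 under the usual filter) and 287 genes were called in the first, 1 member in the second and 12 genes in the third. With all 12 libraries in 1 fit, 3 members and 381 genes were called in the second and 346 genes in the third. With progenitor library b alone, so with fewer samples, 0 members and 4 genes were called in the first and 0 members and 10 genes in the second by edgeR, with 5 of 34 and 9 of 33 members, beside 882 of 14806 and 1471 of 15427 genes, at an unadjusted p under 0.05. Leaving out 1 library gave 2 to 7 members and 719 to 1871 genes in the first, 3 to 8 members and 830 to 1383 genes in the second, and 0 members and 0 to 8 genes in the third. On total counts without scaling, progenitor sums were 95.2 CPM per kb for collagens and 55.6 for integrin beta members. No paired analysis was possible because the astrocyte and progenitor columns carry no replicate number.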

Other observations

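The 41 genes of these names below the threshold held further differences between single libraries. Lama1, a laminin chain of embryonic and meningeal basement membranes, had 14.2, 0.0835, 8.78 and 49.0 CPM in progenitors a to d and at most 0.204 CPM in the other libraries. Col1a2 had 1.1, 0.167, 18.6 and 54.5 CPM in progenitors a to d and at most 0.876 CPM elsewhere, and Itga9 had 12.3, 0.501, 2.22 and 21.8 CPM and 0 elsewhere. Among progenitors, all 3 were lowest in library b. These genes were chosen after their values were seen, and no cause was tested. Another 12 genes, among them Itgb2 and Itgax of leukocytes and Itgb4, the partner of alpha6 in epithelia, reached 10 counts in no library.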
